A study of Rattus norvegicus with 9 samples.

Results

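The genes described here are the receptors through which hormones and nerves make uterine smooth muscle contract, and the gap junction proteins that couple its cells: Oxtr, Avpr1a, Chrm2, Chrm3, Ednra, Ednrb, Agtr1a, Gja1 and Gjb2. They were found by gene symbol in the platform annotation of the deposited array table, and the probe set with the highest mean over the arrays stood for each gene. Of the 9 genes, 7 had a probe set (11 probe sets of the 31042 analysed), and 4 passed a filter on low values and were tested among 10973 genes. These were Gja1, Gjb2, Agtr1a and Chrm3. Oxtr, Avpr1a and Chrm2 lay under the filter and are given as values. No probe set carries the symbol of Ednra or Ednrb, the endothelin receptors, in the annotation used here, and both were not analysed here.

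Total RNA of uterine tissue from female rats was measured on 9 Affymetrix expression arrays, 3 for each group, with 1 deposited intensity per probe set and array. Control rats (arrays 41, 42 and 43) were untreated, and the labels give no stage of their oestrous cycle. Model rats (arrays 21, 22 and 23) were induced to ovulate with 0.5 U of pregnant mare serum gonadotropin (PMSG), which drives follicle growth, and 48 h later with human chorionic gonadotropin (hCG) in the same amount, which triggers ovulation. Treatment rats (arrays 31, 32 and 33) had the same induction together with electroacupuncture, a weak current passed through needles, at the points named Guanyuan and Sanyinjiao. Its sessions lasted 15 min, on 7 days before the induction, and went on during it. No electroacupuncture without induction was among the groups, so the treatment arrays carry both agents. The labels speak of 18 rats in groups of 6 and do not say that each array is a separate animal, so the p-values measure the spread between arrays, which may be technical.

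Oxytocin, vasopressin, acetylcholine, endothelin and angiotensin II act on G protein-coupled receptors. Most of these work through Gq and phospholipase C, which releases calcium inside the muscle cell, while the Chrm2 product lowers cyclic AMP through Gi. Calcium activates myosin light chain kinase and thereby contraction. Gap junctions are channels built of connexins that pass current from cell to cell, and in the rat uterus connexin 43, the product of Gja1, appears in large amount in the muscle towards labour, whereas connexin 26, the product of Gjb2, is known from the uterine epithelium, where it appears around the implanting embryo.

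The sequences before the start of the 2 connexin genes are shown because both genes were tested here and Gja1 in muscle is a known target of the AP-1 factors. They are the 250 bases upstream of the gene start in RefSeq on the rat build GRCr8. The Gja1 window lies on chromosome 20 at chr20:36302314-36302563 (plus strand) and the Gjb2 window at chr15:35381954-35382203 (minus strand). Capitals mark matches to the motifs searched, each on both strands: the AP-1 site TGANTCA, the nuclear receptor half-site AGGTCA, the GC box GGGCGG and the TATA box TATAAA.

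Gja1: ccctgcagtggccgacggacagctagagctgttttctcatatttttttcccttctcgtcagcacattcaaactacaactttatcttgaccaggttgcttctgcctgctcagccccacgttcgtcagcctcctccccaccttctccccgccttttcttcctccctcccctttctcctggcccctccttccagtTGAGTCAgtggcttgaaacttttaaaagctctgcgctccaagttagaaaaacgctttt
Gjb2: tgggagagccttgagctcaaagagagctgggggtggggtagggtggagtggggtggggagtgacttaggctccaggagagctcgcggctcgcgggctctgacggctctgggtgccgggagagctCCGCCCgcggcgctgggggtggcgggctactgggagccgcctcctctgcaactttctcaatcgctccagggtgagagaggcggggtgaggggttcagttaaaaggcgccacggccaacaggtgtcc

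The Gja1 window held 1 AP-1 site, 58 bases before the start, and no match to the other 3 motifs. Of 33469 RefSeq promoter windows of the same length, 6.34% held an AP-1 site, and none of the other 8 genes had one. The Gjb2 window held 1 GC box on the reverse strand, 126 bases before the start, a motif found in 30.5% of windows. GC content was 51.2% in the Gja1 window and 67.2% in the Gjb2 window. The Agtr1a window was the only one of the 9 with the half-site AGGTCA, on its reverse strand 20 bases before the start, where 14.1% of windows held it. Agtr1a also had TATAAA 45 bases before the start, which 12.9% of windows held, and 2 overlapping GC boxes. The windows of Oxtr, Ednra and Ednrb held none of the 4 motifs. These are matches of letters and not sites shown to be bound.

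Median intensities of the arrays were 23.50 to 23.96, and the 40th percentile used by the filter lay at 15.2 to 16.2. Control 43 stood apart from the other controls. Its log2 values correlated at r = 0.887 with control 41 and 0.916 with control 42, which correlated with each other at 0.980, and at 0.972 with model 21, across 10973 genes that are not independent replicates. C3, a complement gene that oestrogen induces in the rat uterus, measured 5116 and 4301 in controls 41 and 42 and 13.2 in control 43. Differences from control are therefore given with this array and, for most of the genes described, also without it. Control 43 was singled out from these same data, so a call made only without it is a description and not support. Without it, 1372 genes were called between model and control, against 3 with all arrays and 0 without control 41 or without control 42. The labelled tissue held smooth muscle: 15 of 16 annotated smooth muscle markers passed the filter, with desmin (Des) at 1247 to 3087 over the 9 arrays. In bulk tissue, fewer cells of a type and less RNA per cell cannot be told apart.

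None of the 4 tested genes passed an adjusted p of 0.05 in any comparison (limma, Benjamini-Hochberg adjustment over all genes tested). Between model and control, 0.0273% of all genes passed, between treatment and control 0.51%, between treatment and model 0%, and between all induced arrays (the mean of model and treatment) and control 0.574%. The count of 0 of 4 is close to these shares. At an unadjusted p of 0.05, 1 of the 4 passed between model and control (Gja1, with 12.4% of all genes), and 2 between treatment and control (with 17.4% of all genes). The latter were Chrm3, higher as in 6.54% of genes, and Gja1, lower as in 10.8%. Between treatment and model 1 passed (Chrm3, with 14.7% of all genes), and between all induced arrays and control 2 passed (Gja1 and Chrm3, with 15.3%). The series' design text names the comparisons of model and of treatment with control, and both share the 3 control arrays.

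**Figure D1:**
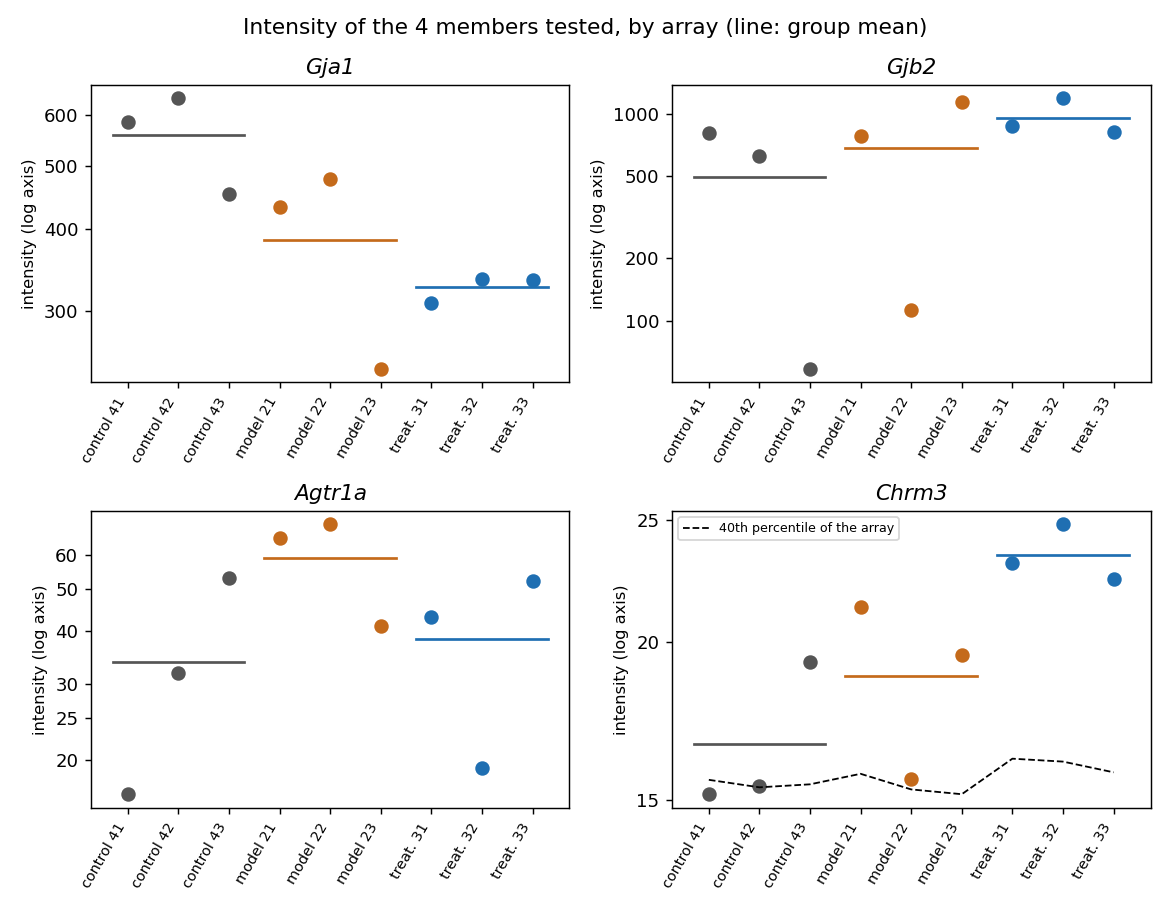
Intensity of Gja1, Gjb2, Agtr1a and Chrm3 on the 9 arrays (points, log axes that differ between panels), with the arithmetic mean of each group as a line and the 40th percentile of each array as a dashed line for Chrm3. The 3 treatment arrays lie below all controls for Gja1 and above all controls for Chrm3 and Gjb2, and control 43 is the lowest array for Gjb2.

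Oxtr encodes the oxytocin receptor, whose level sets how strongly the uterus answers to oxytocin. Its intensity was 5.62, 5.34 and 4.38 in controls 41, 42 and 43, and 5.03, 4.25 and 4.28 in models 21, 22 and 23. It was 5.15, 6.06 and 5.61 in treatments 31, 32 and 33. The treatment arrays lay above all model arrays and overlapped the controls, and all 9 values had percentile ranks of 9.18 to 15.1 within their own array. In a fit without the filter (14217 genes), its log2 difference was 0.07 between treatment and model (95% interval 0.01 to 0.14, limma adjusted p = 0.293). Between model and control it was -0.04 (adjusted p = 0.590), and between treatment and control 0.03 (adjusted p = 0.568). Without control 43 these were -0.07 (adjusted p = 0.161) and 0.0086 (adjusted p = 0.881). The signal lay near the bottom of the arrays, where the background level is unknown.

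Avpr1a encodes the V1a vasopressin receptor, which also answers to oxytocin. It measured 3.09, 3.69 and 5.02 in the controls, 3.57, 4.08 and 2.91 in the model arrays and 3.78, 2.99 and 3.33 in the treatment arrays. The 3 groups overlapped, and the values had percentile ranks of 1.53 to 12.9 within their arrays. Its log2 differences without the filter were -0.03 between model and control, -0.04 between treatment and control and -0.01 between treatment and model (limma adjusted p = 0.767, 0.602 and 0.896). Without control 43, its highest array, the differences from control were 0.0094 and -0.0020 (adjusted p = 0.879 and 0.975).

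Chrm2 encodes the M2 muscarinic receptor, the more abundant of the muscarinic receptors in many smooth muscles. Its intensity was 10.6, 11.1 and 11.8 in the controls and 9.85, 10.5 and 10.8 in the model arrays. It was 13.0, 13.5 and 15.2 in the treatment arrays, which lay above every control and every model array, while control and model overlapped. All 9 values stayed under the filter, with percentile ranks of 28.3 to 39.1. Without the filter, the log2 difference was 0.14 between treatment and control (95% interval 0.05 to 0.22, limma adjusted p = 0.153) and 0.18 between treatment and model (0.10 to 0.27, adjusted p = 0.268). Between model and control it was -0.04 (adjusted p = 0.658). Leaving out control 43 gave differences from control of 0.15 for treatment (adjusted p = 0.0790) and -0.03 for model (adjusted p = 0.739).

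**Figure D2:**
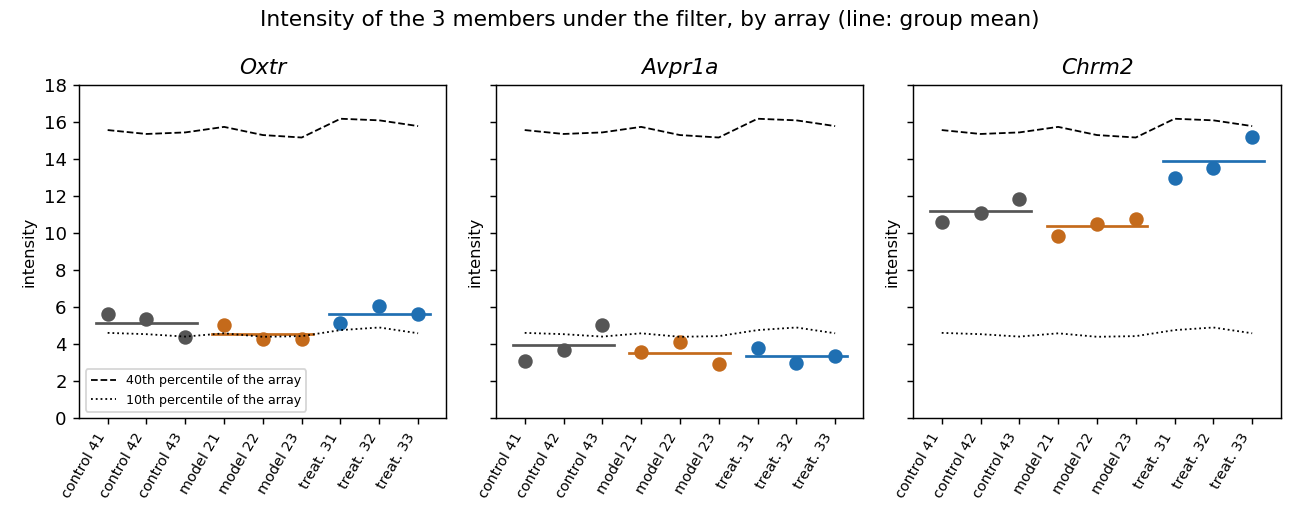
Intensity of Oxtr, Avpr1a and Chrm2 on the 9 arrays (points, linear axis from 0), with group means as lines and the 40th (dashed) and 10th (dotted) percentile of each array. Oxtr and Avpr1a lie near the 10th percentile, and the 3 treatment arrays of Chrm2, at 13.0 to 15.2, lie above the other arrays and just under the 40th percentile.

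Chrm3 encodes the M3 muscarinic receptor, the Gq-coupled one through which acetylcholine contracts uterine muscle. Its intensity was 15.2, 15.4 and 19.3 in the controls and 21.3, 15.6 and 19.5 in the model arrays. It was 23.1, 24.8 and 22.5 in the treatment arrays. Every treatment value was above every control and model value, and control and model overlapped. The signal was close to the filter, which it passed in 8 of 9 arrays. The group means on the log2(intensity + 16) scale were 5.02 ± 0.10, 5.12 ± 0.12 and 5.30 ± 0.04 (SD, n = 3) in control, model and treatment. Between treatment and control the difference was 0.28 (SE 0.08, 95% interval 0.10 to 0.46, limma adjusted p = 0.154), and between treatment and model 0.18 (0.00 to 0.37, adjusted p = 0.338). Between model and control it was 0.09 (SE 0.08, -0.09 to 0.27, adjusted p = 0.605). Without control 43, the difference between treatment and control was 0.34 (adjusted p = 0.0489), the single call of a tested gene under any alternative, where 6.55% of all genes passed and 1.5% passed as higher. The difference between model and control without that array was 0.15 (limma adjusted p = 0.236). A second probe set of Chrm3 measured 3.24 to 4.37 and its groups overlapped.

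Agtr1a encodes an angiotensin II type 1 receptor, found on vascular and uterine smooth muscle. Its intensity was 16.6, 31.9 and 53.1 in the controls, 65.8, 70.9 and 41.0 in the model arrays, and 43.1, 19.2 and 52.4 in the treatment arrays. Models 21 and 22 were the highest of the 9 arrays, and all 3 groups overlapped. The log2 means were 5.57 ± 0.54, 6.21 ± 0.33 and 5.71 ± 0.50 (SD, n = 3) in control, model and treatment. Model differed from control by 0.64 (SE 0.33, 95% interval -0.12 to 1.39, limma adjusted p = 0.447) and treatment from model by -0.50 (-1.26 to 0.25, adjusted p = 0.476). Treatment differed from control by 0.13 (-0.62 to 0.88, adjusted p = 0.870). Without control 43 the difference between model and control was 0.91 (adjusted p = 0.096), and between treatment and control 0.40 (adjusted p = 0.467). Other single arrays moved these values the opposite way: without control 41 model differed from control by 0.36 (adjusted p = 0.902), and without treatment 32 treatment differed from model by -0.22 (adjusted p = 0.855). A second probe set, at 9.92 to 16.3, gave 0.05 between model and control and 0.12 between treatment and control. Between treatment and model it gave 0.07, opposite in sign to the main probe set.

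Gja1, the gene of connexin 43, measured 583, 635 and 453 in the controls and 433, 477 and 244 in the model arrays. It was 308, 336 and 334 in the treatment arrays. Every treatment value was below every control value. Model and control overlapped, since model 22 (477) lay above control 43 (453), and model 23 was the lowest of the 9 arrays. The log2 means were 9.15 ± 0.25, 8.59 ± 0.50 and 8.42 ± 0.07 (SD, n = 3) in control, model and treatment. Treatment was 0.602 times control, a log2 difference of -0.73 (SE 0.23, 95% interval -1.27 to -0.20, unadjusted p = 0.0131, limma adjusted p = 0.185). Model was 0.680 times control, a difference of -0.56 (-1.09 to -0.02, adjusted p = 0.388). Between treatment and model it was -0.18 (-0.71 to 0.36, adjusted p = 0.723), and between all induced arrays and control -0.64 (-1.11 to -0.18, adjusted p = 0.205). These neighbouring levels of model and treatment did not differ beyond their spread.

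Without control 43, the difference of Gja1 was -0.69 between model and control (limma adjusted p = 0.103), -0.87 between treatment and control (adjusted p = 0.0792) and -0.78 between all induced arrays and control (adjusted p = 0.0606). Among the single arrays, model 23 moved the comparison of model with control most: without it the difference was -0.27. The other 2 probe sets of Gja1 gave far weaker signals, 12.7 to 16.3 and 3.72 to 5.71, and differed by 0.03 and 0.05 between treatment and control and by -0.07 and -0.04 between model and control. The lower level in treatment was therefore seen on the main probe set and not on these. On the probe set at 3.72 to 5.71 the treatment arrays lay above every control and model array. On the one at 12.7 to 16.3 they lay above every model array and overlapped the controls. Their differences between treatment and model were 0.08 and 0.11.

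The AP-1 genes Jun and Fos, whose products bind the motif shown in the Gja1 window, gave these values. Jun was 236, 316 and 258 in the controls, 314, 355 and 377 in the model arrays and 280, 322 and 268 in the treatment arrays, with overlap between control and either group. Fos was 845, 488 and 102 in the controls, 28.7, 191 and 164 in the model arrays and 146, 368 and 228 in the treatment arrays. Controls 41 and 42 held the 2 highest Fos values. The log2 difference of Fos between model and control was -1.65 (limma adjusted p = 0.432), and without control 43 it was -2.47 (adjusted p = 0.0495). That of Jun was 0.36 (adjusted p = 0.349). A part of either in the level of Gja1 was not tested.

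Gjb2, the gene of connexin 26, varied most from array to array among the 4 tested genes. It measured 805, 627 and 58.5 in the controls and 786, 112 and 1147 in the model arrays. It was 879, 1189 and 816 in the treatment arrays. Control 43 and model 22 were far below the other 7 arrays, and the highest value was 20.3 times the lowest. The treatment arrays lay above all controls but overlapped the model arrays. The log2 means were 8.41 ± 1.91, 8.94 ± 1.71 and 9.91 ± 0.28 (SD, n = 3) in control, model and treatment. Treatment was 2.84 times control, a log2 difference of 1.504 (SE 1.03, 95% interval -0.86 to 3.87, limma adjusted p = 0.474). Between model and control it was 0.53 (-1.83 to 2.89, adjusted p = 0.828), and between treatment and model 0.97 (-1.39 to 3.33, adjusted p = 0.657). Single arrays set these values. Without control 43, a fit in which 11.3% of genes passed between all induced arrays and control, the difference was -0.56 between model and control, 0.41 between treatment and control and -0.08 between all induced arrays and control, where it was 1.02 with it. Without model 22, the difference between treatment and model was -0.0016 and that between model and control 1.51.

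**Figure D3:**
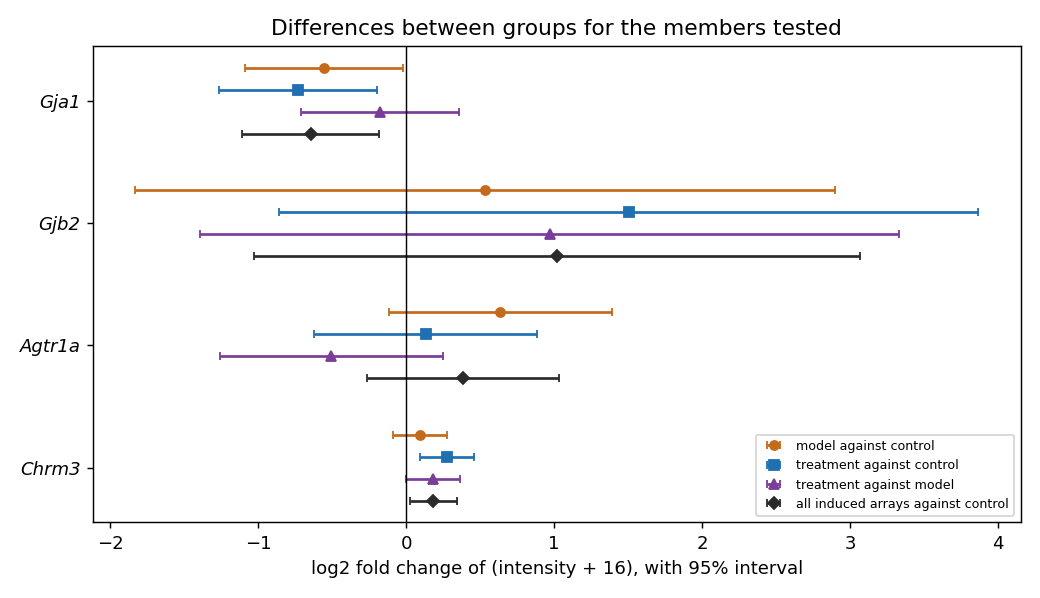
Log2 fold change of (intensity + 16) with its 95% interval for Gja1, Gjb2, Agtr1a and Chrm3 in 4 comparisons (symbols), with 0 as a vertical line. The Gja1 intervals lie below 0 in the 3 comparisons with control, the Gjb2 intervals span more than 4 log2 units, and none of the 16 differences passed the adjusted threshold.

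Groups that did not overlap were frequent over all genes: 14.5% of genes between model and control, 23.3% between treatment and control, 28% between treatment and model and 6.26% between all induced arrays and control. Of the 4 tested genes none, 3 (Gja1, Gjb2 and Chrm3), 1 (Chrm3) and none did so. Between treatment and control 9.4% of genes lay apart and higher in treatment, as Gjb2 and Chrm3 did, and 13.9% lower, as Gja1 did. The median log2 difference over all genes was 0.02, -0.04, -0.05 and 0.00 in these comparisons.

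Markers of the cell types of the uterus also differed between arrays. Summed intensity of the 17 tested epithelial markers (of 18) was 5293 to 21400 in the controls, 4175 to 5643 in the model arrays and 4770 to 7251 in the treatment arrays, and that of the 15 smooth muscle markers (of 18) was 18536 to 30143, 30232 to 35966 and 28664 to 35011. No marker was listed at 0 on any array, but no probe set was, since the lowest value of an array was 1.87 to 2.01. All 15 smooth muscle markers had a positive log2 difference between model and control and between treatment and control. The medians were 0.40 and 0.42, and none passed. At an unadjusted p of 0.05 by limma, 6 and 5 were higher, as were 6.37% and 6.54% of all genes. Without control 43, the contractile proteins Smtn (1.11, adjusted p = 0.0146) and Lmod1 (1.08, adjusted p = 0.0172) rose between model and control, and Smtn (0.92, adjusted p = 0.0315) between treatment and control. In that fit 5.67% and 1.5% of all genes rose in these comparisons. With all 9 arrays the differences were 0.86, 0.88 and 0.68 (limma adjusted p = 0.266, 0.252 and 0.222). Of the epithelial markers, 16 of 17 were negative between model and control (median -0.80) and 15 of 17 between treatment and control (median -0.60). None of them passed. At an unadjusted p of 0.05 by limma, 6 and 5 were lower, as were 6.08% and 10.8% of all genes. In the fit without control 43 the number that fell was 13 and 6 of the 17, where 6.88% and 5.05% of all genes fell. Averaged over the epithelial markers, centred log2 values were 1.409 and 0.996 in controls 41 and 42, -0.54 in control 43 and -0.67 to 0.01 in the 6 induced arrays. Gja1 was highest in the 2 arrays with the most epithelial signal. Gjb2 was low in control 43 but high in model 21 (786), which had the lowest epithelial mean. Between treatment and model, all 9 endothelial markers (median -0.50), 10 of 12 stromal markers (median -0.27), 7 of 9 leukocyte markers (median -0.52) and all 5 adipocyte markers (median -0.55) had negative differences, and none passed. At an unadjusted p of 0.05 by limma, 1, 2, 1 and 1 of them were lower, as were 10.1% of all genes. A further leukocyte marker, 1 of the 9, was higher, as were 4.57% of all genes. Between model and control, the adipocyte median was 0.88 and the endothelial median 0.21, and none of these markers passed. In that comparison 4 of the 5 adipocyte markers were higher at an unadjusted p of 0.05 by limma, as were 6.37% of all genes. The remaining 1 had a negative difference (-0.67). Agtr1a (on its main probe set only) and Gja4, which vessels express, were also lower in treatment than in model, by values given with each gene. The part of these markers in the values was not tested.

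**Figure D4:**
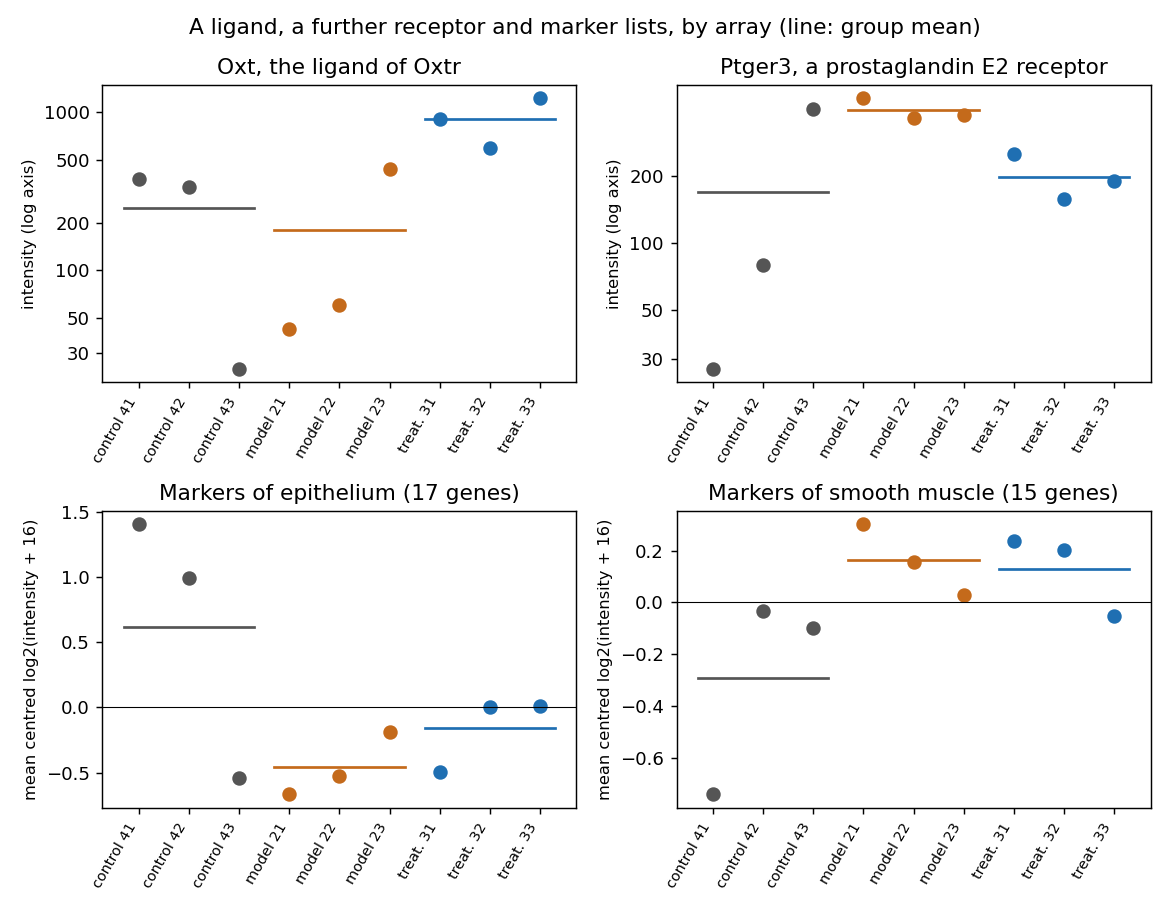
Intensity of Oxt and Ptger3 (upper panels, log axes) and mean centred log2 values of the epithelial and smooth muscle markers (lower panels) on the 9 arrays, with group means as lines. Oxt is highest in the 3 treatment arrays, at 592 to 1220, and the epithelial markers are highest in controls 41 and 42.

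Among the ligands of these receptors and the enzymes that make or break them, 8 of 18 genes were tested and none passed in any comparison. Between treatment and control, 1 was higher and 2 were lower at an unadjusted p of 0.05 by limma, and the median log2 difference was -0.09. Of all genes, 6.54% were higher and 10.8% lower at that p. Oxt, the oxytocin precursor, which the rat uterine epithelium makes, measured 379, 337 and 23.8 in the controls and 42.6, 59.8 and 438 in the model arrays. It was 909, 592 and 1220 in the treatment arrays, above every control and every model array. Treatment differed from control by 2.32 (SE 1.01, unadjusted p = 0.0491, limma adjusted p = 0.287) and from model by 2.81 (SE 1.01, unadjusted p = 0.0229, adjusted p = 0.292). Model differed from control by -0.49 (adjusted p = 0.842). Without control 43, whose Oxt was the lowest of the 9 arrays, the difference between treatment and control was 1.25 (adjusted p = 0.371).

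Ece1, which cuts big endothelin to its active form, measured 186, 182 and 228 in the controls, 204, 208 and 201 in the model arrays and 150, 114 and 170 in the treatment arrays. The treatment values were the lowest of the 9, with a log2 difference of -0.42 from control (limma adjusted p = 0.197) and -0.47 from model (adjusted p = 0.286). The difference of Ece1 from control without control 43 was -0.33 (adjusted p = 0.205). Mme, the peptidase neprilysin, which degrades several of these peptides, differed by -0.74 between treatment and control (adjusted p = 0.185), with all treatment arrays (95.1 to 143) below all controls (168 to 276), and by -0.88 without control 43 (adjusted p = 0.0771). Avp, the vasopressin precursor, was 19.7 to 25.6 in the controls, at most 19.2 in the model arrays and 17.1 to 22.7 in the treatment arrays, and differed by -0.18 between model and control, with and without control 43 (adjusted p = 0.415 and 0.230). Edn1, the endothelin-1 precursor, was 19.1 to 28.2 over all arrays with overlapping groups.

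Of 21 other connexin and pannexin genes, 5 were tested and none passed. At an unadjusted p of 0.05 by limma, 0 passed between model and control, where 12.4% of all genes did. Between treatment and control 1 was higher and 1 lower, as were 6.54% and 10.8% of all genes. Between treatment and model 1 was higher, as were 4.57% of all genes. Gjb1, a connexin of epithelia, was 19.5 to 28.5 in the controls, 19.5 to 25.1 in the model arrays and 29.5 to 35.7 in the treatment arrays. Treatment differed from control by 0.31 (limma adjusted p = 0.207) and from model by 0.30 (adjusted p = 0.286). Gja4, a connexin of endothelium, differed by -0.69 between treatment and control (adjusted p = 0.273), with control 43 the highest array (177), and by -0.36 without that array (adjusted p = 0.306). Between treatment and model it differed by -0.47 (adjusted p = 0.449). Between treatment and control, Gja5, of arteries, differed by -0.45 (adjusted p = 0.370) and Gjc1, of smooth muscle, by 0.12 (adjusted p = 0.767). The differences of Gjb1, Gja5 and Gjc1 between treatment and control without control 43 were 0.27, -0.34 and 0.27 (adjusted p = 0.205, 0.467 and 0.331). The median over the 5 was -0.07, 0.00 and -0.20 between model and control, treatment and control, and treatment and model.

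Of the 8 close relatives of the receptors, 3 were tested and none passed. At an unadjusted p of 0.05 by limma, 1 was higher between treatment and control, as were 6.54% of all genes. Between treatment and model 1 was higher and 1 lower, as were 4.57% and 10.1% of all genes. Chrm5, the M5 muscarinic receptor, was 20.6, 21.3 and 22.1 in the controls, 23.7, 20.5 and 19.5 in the model arrays and 28.0, 28.2 and 25.6 in the treatment arrays. As for Chrm2 and Chrm3, the 3 treatment values were the highest. The signals of these genes were low, and the intensity level used by the filter was also highest on the treatment arrays. That level was 15.8 to 16.2 there and 15.2 to 15.7 on the control and model arrays. Of all genes tested, 8.1% lay apart and higher in treatment than in model, and 9.4% in treatment than in control. After quantile normalization Chrm3 differed by 0.265 between treatment and control and by 0.173 between treatment and model. After median centring these were 0.267 and 0.182, and without either 0.277 and 0.184. A part of the array level in this order was not tested. Chrm5 differed by 0.21 between treatment and control (limma adjusted p = 0.154) and by 0.22 between treatment and model (adjusted p = 0.286). Without control 43 its difference from control was 0.23 (adjusted p = 0.0957). Agtr1b, the second type 1 angiotensin receptor gene of the rat, was 9.55, 21.4 and 23.9 in the controls. It was 17.4 to 27.7 in the model arrays and 8.24 to 13.8 in the treatment arrays, a difference of -0.48 (limma adjusted p = 0.295). Treatment and control overlapped and differed by -0.33 (adjusted p = 0.366). All treatment values of Agtr1b and its value in control 41 lay under the filter level. Agtr1a and Agtr1b are near-identical copies whose RNAs may reach each other's probes. Agtr2, the type 2 receptor, was 19.9 to 29.0 over all arrays.

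Other receptors that contract or relax the uterus (14 tested of 36) did not pass either. At an unadjusted p of 0.05 by limma, 4 were higher between model and control and 1 between treatment and control. Of all genes, 6.37% and 6.54% were higher in these comparisons. Ptger3, a prostaglandin E2 receptor that lowers cyclic AMP and favours contraction, measured 27.1, 79.7 and 399 in the controls, 446, 366 and 377 in the model arrays and 250, 157 and 189 in the treatment arrays. Control 43 had a level like that of the model arrays, and the treatment arrays lay below all model arrays. Its difference between model and control was 1.78 (SE 0.68, limma adjusted p = 0.368), and between treatment and control 0.82 (adjusted p = 0.561). Without control 43 Ptger3 rose by 2.68 between model and control (adjusted p = 0.00492) and by 1.72 between treatment and control (adjusted p = 0.0219), where 12.5% and 6.55% of all genes passed. Tacr2, the neurokinin A receptor of smooth muscle, was 12.3 to 19.0 in the controls and 21.6 to 28.9 in the treatment arrays, a difference of 0.44 (adjusted p = 0.174), or 0.38 without control 43 (adjusted p = 0.170). Ptger2, a relaxing prostaglandin E2 receptor, differed by 0.25 between model and control (adjusted p = 0.387). Lhcgr, the receptor of the hCG given, differed by 0.36 (adjusted p = 0.353) in the same comparison. Without control 43 both rose, by 0.36 and 0.49 (adjusted p = 0.0255 and 0.0354). Ptger2 measured 13.7, 11.4 and 20.1 in controls 41, 42 and 43 and 19.0 to 22.8 in the model arrays. Lhcgr measured 11.3, 11.0 and 19.3 in these controls and 18.3 to 29.5 in the model arrays. For both genes, controls 41 and 42 lay under the filter level of their arrays (15.6 and 15.3).

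**Figure D5:**
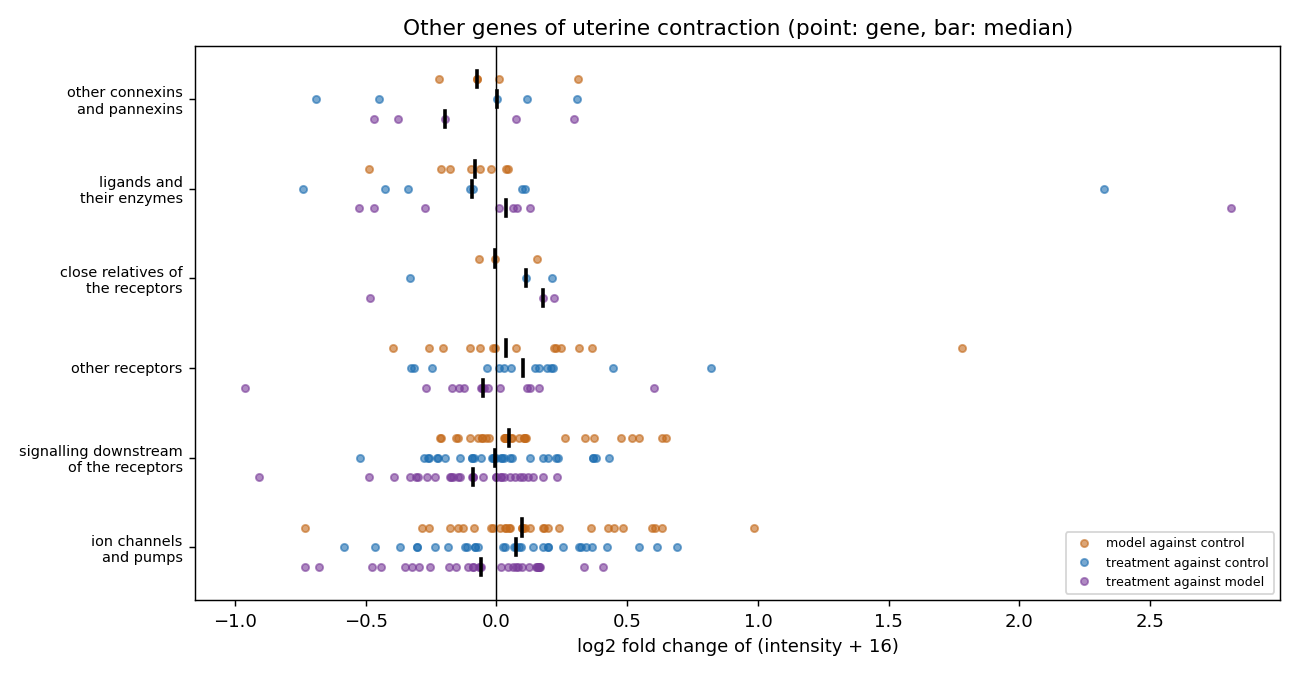
Log2 fold change of (intensity + 16) of each tested gene (points) in 6 lists of further contraction genes, in 3 comparisons (colours), with the list median as a bar. The medians lie between -0.20 and 0.18, and the points farthest from 0 are Oxt in both comparisons of the treatment arrays and Ptger3 between model and control.

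In the signalling downstream of the receptors (G proteins, phospholipase C and the control of myosin), 30 of 42 genes were tested and none passed. At an unadjusted p of 0.05 by limma, 3 were higher between model and control, 2 lower between treatment and control and 3 lower between treatment and model. The shares of all genes in the same directions were 6.37%, 10.8% and 10.1%. Grk6, a kinase that switches off G protein-coupled receptors, was 464, 467 and 508 in the controls, 526, 537 and 489 in the model arrays and 399, 412 and 414 in the treatment arrays. The treatment values were the lowest, with a log2 difference of -0.33 from model (limma adjusted p = 0.286) and -0.22 from control (adjusted p = 0.220), the latter -0.18 without control 43 (adjusted p = 0.223). Gnas, the stimulatory G protein subunit that raises cyclic AMP, differed by 0.34 between model and control (limma adjusted p = 0.326). Without control 43 Gnas rose by 0.44 between model and control (adjusted p = 0.0275). Chosen after their values were seen, Ppp1r14a, an inhibitor of myosin phosphatase, rose by 0.97 (adjusted p = 0.0179), Plcb4, a phospholipase C, by 0.59 (adjusted p = 0.0421), and Prkca, a protein kinase C, fell by 0.21 (adjusted p = 0.0474) in that comparison without control 43. With all arrays their differences were 0.63, 0.26 and -0.14 (limma adjusted p = 0.407, 0.659 and 0.407).

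Among ion channels and pumps of excitability, 31 of 38 genes were tested and none passed. At an unadjusted p of 0.05 by limma, 3 were higher and 2 lower between model and control, 4 higher and 3 lower between treatment and control, and 3 higher and 2 lower between treatment and model. Of all genes, 6.37% were higher and 6.08% lower between model and control. These shares were 6.54% and 10.8% between treatment and control, and 4.57% and 10.1% between treatment and model. Kcnk3, a background potassium channel that holds the resting potential, was 34.4, 32.1 and 34.3 in the controls, 32.3, 30.5 and 36.0 in the model arrays and 47.2, 48.8 and 41.3 in the treatment arrays. All treatment values were above all others, with a log2 difference of 0.31 from control (limma adjusted p = 0.118) and 0.34 from model (adjusted p = 0.286). Atp2b1, a calcium pump of the cell membrane, was 272 to 344 in the controls, 306 to 369 in the model arrays and 224 to 251 in the treatment arrays, with log2 differences of -0.37 from control (adjusted p = 0.173) and -0.47 from model (adjusted p = 0.286). Trpc1, a cation channel, differed by 0.34 between treatment and control (adjusted p = 0.171), and Kcne4, a potassium channel subunit, by -0.73 between model and control (adjusted p = 0.331). Leaving out control 43 gave differences between treatment and control of 0.33 for Kcnk3 (adjusted p = 0.0653), -0.29 for Atp2b1 (adjusted p = 0.160) and 0.35 for Trpc1 (adjusted p = 0.117), and that of Kcne4 between model and control was -0.65 (adjusted p = 0.160).

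Without control 43, 5 of these channel and pump genes rose between model and control, named here after their values were seen. They were Kcnq5, a voltage-gated potassium channel (1.68, limma adjusted p = 0.00933), Kcnma1, the large-conductance calcium-activated potassium channel of myometrium (0.99, adjusted p = 0.0301), the calcium channel subunits Cacna1d (0.92, adjusted p = 0.0243) and Cacnb2 (0.62, adjusted p = 0.0417), and Slc8a1, a sodium-calcium exchanger (0.80, adjusted p = 0.0177). Kcnq5 also rose between treatment and control (1.38, adjusted p = 0.0191). The share of all genes that passed in that fit was 12.5% and 6.55% in these comparisons. With all arrays the differences between model and control were 0.99, 0.63, 0.43, 0.49 and 0.45 in the same order of genes. Their limma adjusted p was 0.458, 0.434, 0.619, 0.331 and 0.493. Kcnq5 differed by 0.69 between treatment and control with all arrays (adjusted p = 0.522). In none of the 6 lists did a gene pass under an alternative that kept all 3 arrays of each group compared.

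The genes whose log2 values followed each tested gene most closely over the 9 arrays are given as a description. For Gja1 they were Ptp4a1 (Pearson r = 0.958), Sat1 (0.918) and Wipi1 (0.917), and for Gjb2 Dclre1b (0.958), Grm8 (0.954) and H6pd (0.940). For Agtr1a they were Sncg (0.970), Pdcl1-ps1 (0.965) and Gal3st4 (0.962), and for Chrm3 Abat (0.962), Fads2 (0.934) and Htr1b (0.929). They are the highest among all genes tested, over the same 9 arrays, and carry no p.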

How the data were processed

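The authors deposited 1 linear intensity per probe set and array, used here as it stands. The submitters' processing notes name MAS5, the Affymetrix summary method. How it was set, how arrays were scaled and which probe sets it called present is not given in the sources used here, so the background level is unknown. Of 31099 probe sets, 57 controls were left out. The platform annotation gave 1 symbol to 20826 of the rest, several to 436 and none to 9780, and 20764 matched a RefSeq gene by gene ID. Trimmed means differed by at most 1.09-fold between arrays, so no further scaling was applied, and no pair of arrays shared more than 0.438% of equal values. To be kept, a probe set had to reach the 40th percentile of an array on 3 or more of the arrays. Among 14553 such probe sets with 1 symbol, the brightest on average represented each gene (10973 genes).

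Values were log2(intensity + 16), computed from the deposited intensities, which understates changes of dim genes. All comparisons were contrasts of 1 fit to 9 arrays using the limma package, version 3.58.1, under R 4.3.3 (lmFit, then eBayes with trend = TRUE; 6 residual df; two-sided p), adjusted by Benjamini-Hochberg within a comparison, with a threshold of 0.05. The fit was tested on simulated data. The alternatives added 1 or 64 in place of 16, or used quantile normalization, median centring, no filter or the 60th percentile, no trend, robust eBayes, the mean or the most variable probe set, a replicate block, only the groups compared, and each array left out. The members and gene lists were chosen with earlier results of these data known. All 9 members are named. Of each other list the 4 tested genes with the smallest unadjusted p over the 3 pairwise comparisons are named, and for each tested member the 3 genes with the highest r. Genes named outside this rule are C3, Jun, Fos, Edn1, Des, Pgr, Hoxa10, Hoxa11 and those said to be chosen after their values were seen. Of the signalling list, 2 genes that this rule names are not reported here. The number of arrays limits the precision. Figures used matplotlib 3.10.9 in Python 3.11.15.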

Additional observations from a re-analysis of the deposited data

How the results depend on the processing

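Of 328 values of the 4 tested genes under alternatives, 320 kept their direction and their side of the threshold, 7 turned sign and 1 passed (Chrm3 between treatment and control without control 43). Many of these alternatives leave the log2 difference itself unchanged, so its direction could not turn. These are the filter, the trend, robust eBayes, the replicate block, only the groups compared, and leaving out an array of a group not compared. The count of 320 is therefore no measure of how firm the directions are. Between treatment and model, Gja1 was 0.0052 with the mean of all its probe sets. With each array left out in turn, Gjb2 ran from -0.56 to 1.51 between model and control, from -0.0016 to 1.59 between treatment and model and from -0.0767 (without control 43) to 1.65 between all induced arrays and control, and Agtr1a from -0.14 (without control 41) to 0.42 (without treatment 32) between treatment and control. Of the genes under the filter, Avpr1a without control 43 was 0.0094 between model and control and 0.0037 between all induced arrays and control, a setting chosen after seeing the data. The number of tested genes called between treatment and control was 0 to 1 over these fits. The number of all genes called between model and control was 3, and 1 without the filter, 5 with the most variable probe set, 1 with only the groups compared, and 0 to 1372 with an array left out (1372 without control 43). Between treatment and control it was 56, and 0 (without treatment 33) to 716 (without control 43). Between treatment and model it was 0, and up to 3 without model 23. Between all induced arrays and control it was 63, and 34 without the filter, 22 with the mean of probe sets, and 3 (without treatment 31) to 1237 (without control 43). The cause of these shifts was not tested. Between treatment and control, 19 genes were higher and 37 lower, and after quantile normalization 27 and 28. For all induced arrays these were 16 and 47, and 21 and 37 after it.

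The array numbers of the groups share only a last digit. Deviations of arrays with the same digit correlated at -0.41 to 0.31, so they were not treated as pairs. A replicate block by that digit left 27 genes called between treatment and control and 32 between all induced arrays and control, with none of the 4 tested genes among them. Probe sets near or under the filter, Chrm3 among them, limit what these arrays can show, and with the filter at the 60th percentile Chrm3 was not tested.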

Other observations

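Igfbp1, a gene of the steroid-responsive uterus whose product binds insulin-like growth factors, was named after its values were seen. It measured 11.0, 17.2 and 40.8 in the controls, 506, 896 and 637 in the model arrays and 351, 576 and 891 in the treatment arrays. It rose by 4.19 between model and control (limma adjusted p = 0.0355) and by 3.97 between treatment and control (adjusted p = 0.0162) on the log2 scale, and control 43, whose whole profile was close to model 21, lay with the other controls. Without control 43 these differences were 4.50 (adjusted p = 0.00121) and 4.28 (adjusted p = 0.00167). Pgr, the progesterone receptor, was 43.8 to 108 in the controls, at most 65.7 in the model arrays and 64.6 to 72.1 in the treatment arrays. The stromal genes Hoxa10 and Hoxa11 were highest in control 43, at 473 and 307, against 155 and 113 in control 41.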
